A study of Mus musculus with 10 samples.

Results

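The transcripts of 10 enzymes that remove superoxide and peroxides or keep thiols reduced were measured in mouse retinas after 1 day of light damage (LD): the superoxide dismutases *Sod1*, *Sod2* and *Sod3*, catalase (*Cat*), the glutathione peroxidases *Gpx1*, *Gpx3* and *Gpx4*, the peroxiredoxins *Prdx1* and *Prdx6*, and thioredoxin (*Txn1*). They are the rows of these symbols among the 54532 genes of the deposited table, by a rule that uses no measured value. The enzymes themselves were chosen with earlier results of these data known. After LD, *Txn1*, *Prdx1* and *Gpx1* rose 1.35-fold, 1.30-fold and 1.47-fold, while the other 7 enzymes did not pass the test. The share of enzymes that passed, 30%, was near the 27.8% of all genes tested. Among related genes, the cystine transporter *Slc7a11* rose 2.97-fold, the glutathione-degrading enzyme *Chac1* 4.39-fold and the thioredoxin reductase *Txnrd1* 1.81-fold.

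RNA-seq was performed on neural retinas of BALB/c mice, an albino inbred strain, at 2 months of age. The labels give both groups 12 hr of dark adaptation, followed by 1 day under normal light of 200 lux (NL, 5 retinas, numbered NL-1, NL-4, NL-5, NL-7 and NL-8) or under 15000 lux (LD, 5 retinas, numbered LD-1, LD-4, LD-6, LD-7 and LD-8). The labels name no transgene and no other treatment. They do not say whether any retinas came from the same mouse or were pooled, so p-values measure the spread between these samples. The study chose the 1-day exposure to find genes induced before the retina degenerates, and the question here is whether the antioxidant enzymes are among those that differ.

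Superoxide dismutases turn superoxide into oxygen and hydrogen peroxide. Catalase splits hydrogen peroxide, glutathione peroxidases reduce peroxides with electrons from glutathione, and peroxiredoxins do so with a reactive cysteine that thioredoxin reduces again, both fed by NADPH through reductases. The retina is exposed to such oxidants through light, its high oxygen use and the polyunsaturated lipids of the photoreceptor outer segments, and several of these genes are known targets of the transcription factor NRF2, which binds antioxidant response elements.

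A sequence feature of the glutathione peroxidases lies at the active site. In *Gpx1*, *Gpx3* and *Gpx4* the catalytic residue is selenocysteine, encoded by a TGA codon that would otherwise stop translation, and in *Gpx7* and *Gpx8*, relatives described below, a cysteine codon stands there. The codon (in capitals) is shown with 7 codons on each side, on the coding strand, from the GRCm38 genome and the GENCODE M21 transcripts. It was codon 47 of *Gpx1* (chr9:108339451-108339453), codon 73 of *Gpx3* (chr11:54907256-54907258), codon 73 of *Gpx4* (chr10:80054737-80054739), codon 56 of *Gpx7* (chr4:108403430-108403432, minus strand) and codon 79 of *Gpx8* (chr13:113045661-113045663, minus strand).
Gpx1: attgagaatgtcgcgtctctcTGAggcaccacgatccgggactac
Gpx3: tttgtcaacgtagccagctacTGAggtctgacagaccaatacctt
Gpx4: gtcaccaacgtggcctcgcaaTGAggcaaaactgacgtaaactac
Gpx7: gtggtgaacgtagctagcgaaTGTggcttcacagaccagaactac
Gpx8: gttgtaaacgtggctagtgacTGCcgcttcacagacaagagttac

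Promoters were searched for the letters of the antioxidant response element core (TGACNNNGC, both strands) and of the TATA box core (TATAAA, given strand) in the 250 bases before each RefSeq start site on GRCm38.p6. Windows were found for 8 of the 10 genes, with 11 start sites in all, and not for *Sod3* and *Prdx6*. The antioxidant response element core was present in 2 of the 11 windows, those of *Prdx1* and *Sod1*, against 10.2% of the 32851 windows of all genes. TATAAA was present in 3, those of *Prdx1*, *Sod1* and *Txn1*, against 7.59%, and both in the same window in 0.569% of all windows. The promoters with both are shown because *Prdx1* rose after LD and *Sod1* did not pass the test. Capitals mark the matches. The core is read on the minus strand, as TGACTCAGC at 133 to 125 bases before the start of *Prdx1* (window chr4:116685349-116685598, plus strand) and as TGACCACGC at 56 to 48 bases before that of *Sod1* (window chr16:90220512-90220761, plus strand).
Prdx1: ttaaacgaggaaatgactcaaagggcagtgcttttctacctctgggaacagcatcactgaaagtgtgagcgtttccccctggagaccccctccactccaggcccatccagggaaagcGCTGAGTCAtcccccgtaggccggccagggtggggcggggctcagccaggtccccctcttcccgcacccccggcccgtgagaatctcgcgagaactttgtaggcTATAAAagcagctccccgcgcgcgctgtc
Sod1: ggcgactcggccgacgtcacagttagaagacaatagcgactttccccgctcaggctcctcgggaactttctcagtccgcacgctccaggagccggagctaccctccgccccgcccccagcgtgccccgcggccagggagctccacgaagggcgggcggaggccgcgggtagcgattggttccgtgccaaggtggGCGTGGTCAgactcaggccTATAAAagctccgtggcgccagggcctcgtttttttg

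Values are FPKM, that is fragments per kilobase of a gene's length, scaled to library size. Recovered from these values, the depth was 21343389 to 26832535 reads in NL and 18965090 to 23378090 reads in LD. The defining rod and cone genes marked the tissue as retina, with a summed level over 10 genes of 9905 to 12031 FPKM under NL and 1574 to 3061 under LD, and all 10 fell. In a whole retina, fewer cells of a type and less RNA per cell cannot be told apart. Among the LD retinas, LD-4 and LD-6 stood apart from the other 3, and among the NL retinas, NL-1 and NL-8 were the highest in the pigment cell genes *Tyrp1* and *Pmel*. Retinas of the pairs LD-4 and LD-6, NL-5 and NL-7, and LD-1 and LD-7 were closer to each other in their reads (chi-square per gene of 2.52 to 3.41) than the other pairs of the same group (10.9 to 38.5), which was above sampling noise, and all 10 were kept as separate samples. The labels do not say whether the retinas of such a pair came from 1 mouse. If they did, there would be 4 NL and 3 LD animals, and n = 5 and the exact p-values below, which count 5 against 5, would not hold. With these pairs averaged, limma still called *Txn1* (adjusted p = 0.0107), *Prdx1* (0.0350) and *Gpx1* (0.0381).

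LD and NL were compared in limma across 24508 genes, those that reached 0.1 FPKM in 5 or more retinas. A gene was called at a Benjamini-Hochberg adjusted p under 0.05. All 10 enzymes passed the filter and 3 were called, all higher after LD, a share of 30%, and 27.8% of all genes tested were called, 14.5% as higher and 13.4% as lower. The share among the enzymes was near the background. In the same 3 genes, all 5 LD retinas lay above all 5 NL retinas, which held for 11.8% of all genes tested. At the study's own threshold, an adjusted p under 0.01 with more than a 2-fold change, none of the 10 enzymes was called by limma, against 6.51% of all genes. An unadjusted limma p under 0.05 was found for 4 of the 10, and for 9371 of the 24508 genes tested. On the recovered reads, limma-voom called 3 of the 10 and 6907 of the 24508 at an adjusted p under 0.05. The median difference of the 10 enzymes was 0.26 on the log2 scale (all genes: -0.01). Of the 10 estimates 8 were above 0, as were 11900 of the 24508.

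**Figure D1:**
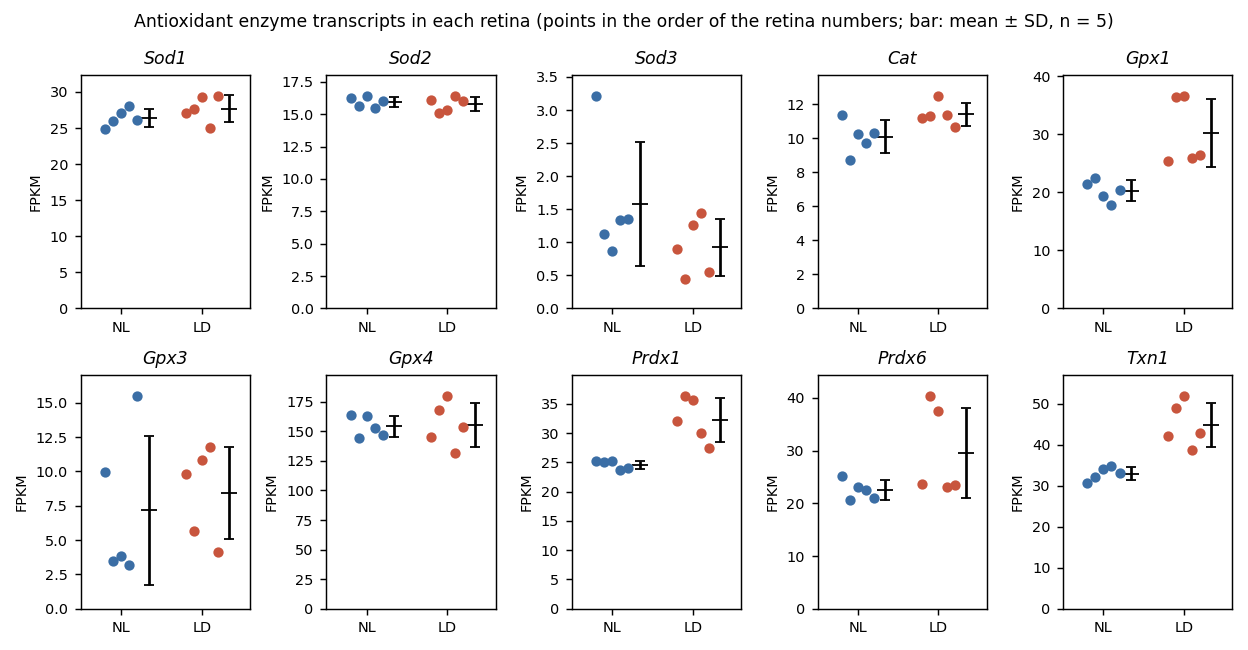
FPKM (y axes, each from 0) of the 10 enzymes in each NL retina (blue) and LD retina (red), with points in the order of the retina numbers and bars for the mean ± SD (n = 5). The groups do not overlap for *Gpx1*, *Prdx1* and *Txn1*, while *Prdx6* is high in LD-4 and LD-6 alone, with 40.3 and 37.4 FPKM.

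Thioredoxin had the lowest adjusted p of the 10. *Txn1*, the small cytosolic protein that hands electrons to peroxiredoxins and other disulfides, was measured at 30.7, 32.1, 34.2, 34.9 and 33.0 FPKM in NL-1, NL-4, NL-5, NL-7 and NL-8 and at 42.1, 49.0, 51.8, 38.6 and 42.8 FPKM in LD-1, LD-4, LD-6, LD-7 and LD-8. Each LD retina was above the highest NL retina, and the lowest of them was LD-7. With n = 5 per group, the mean ± SD was 33.0 ± 1.66 FPKM under NL and 44.9 ± 5.41 FPKM under LD. The rise was 0.44 on the log2 scale with an SE of 0.08, or 1.35-fold with a 95% interval of 1.20 to 1.53 (limma, adjusted p = 0.00195). Fold changes here and below are on the log2(FPKM + 0.1) scale. A two-sided exact permutation test over the 10 retinas gave p = 0.00794, the smallest that 5 against 5 allows. The gene spans chr4:57943373-57956411 (minus strand), and 690 to 1219 reads per retina lay behind these values.

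Most peroxiredoxins use thioredoxin as their reductant. *Prdx1* (chr4:116685544-116700822), the main cytosolic enzyme of this family, was at 25.2, 25.0, 25.2, 23.7 and 24.0 FPKM in the NL retinas, in the order of their numbers, and at 32.0, 36.3, 35.6, 30.0 and 27.4 FPKM in the LD retinas. The NL values were close together and all LD values were above them, with LD-8 the lowest. The mean rose from 24.6 ± 0.713 to 32.3 ± 3.76 FPKM, with a log2 fold change of 0.38 (SE 0.07, limma adjusted p = 0.00304; exact permutation p = 0.00794).

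*Prdx6* (chr1:161240112-161251219, minus strand), a peroxiredoxin that also reduces oxidized phospholipids and is reduced by glutathione, was at 25.2, 20.6, 23.2, 22.5 and 21.03 FPKM in the NL retinas and at 23.6, 40.3, 37.4, 23.0 and 23.4 FPKM in the LD retinas. Of the LD values, 2 lay above the highest NL value, those of LD-4 and LD-6, and the other 3 lay within the NL range. Its log2 fold change of 0.35 (95% interval -0.02 to 0.72) did not pass the test (limma adjusted p = 0.150; exact permutation p = 0.0952). Without LD-4 and LD-6 it was 0.06, with an adjusted p of 0.611.

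Of the 3 glutathione peroxidases, *Gpx1* was called. *Gpx1* (chr9:108338903-108340343), the abundant cytosolic and mitochondrial form, was at 21.4, 22.6, 19.4, 17.8 and 20.5 FPKM in the NL retinas and at 25.5, 36.5, 36.7, 26.0 and 26.5 FPKM in the LD retinas. All LD values were above the NL values, with LD-4 and LD-6 well above the other 3. The mean rose from 20.3 ± 1.84 to 30.2 ± 5.82 FPKM, a log2 fold change of 0.55 (SE 0.12) or 1.47-fold (95% interval 1.22 to 1.77; limma adjusted p = 0.00614; exact permutation p = 0.00794). Without LD-4 and LD-6 the log2 fold change was 0.36 and remained past the threshold (adjusted p = 0.00919).

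*Gpx4* (chr10:80047166-80056439), the form that reduces lipid hydroperoxides in membranes and guards against ferroptosis, had the highest level of the 10 genes and did not pass the test. It was at 164, 145, 163, 152 and 147 FPKM in the NL retinas and at 145, 168, 180, 132 and 154 FPKM in the LD retinas, so the groups overlapped over most of their range. The log2 fold change was 0.01 with a 95% interval of -0.18 to 0.20 (limma adjusted p = 0.970; exact permutation p = 0.937), and its sign was not stable: without LD-4 and LD-6 it was -0.10. A processed copy elsewhere on the chromosome, *Gpx4-ps2* (chr10:45875291-45876086), was listed at 49.8 to 69.5 FPKM. Over 762 aligned bases its transcript was 99.7% identical to that of *Gpx4*, and of the 810 windows of 150 bases in the *Gpx4* transcript, the length of a read, 313 were also found unchanged in the copy. Reads could therefore be split between them in the authors' counting, and the level of *Gpx4* is uncertain to that extent. With the reads of both summed, the log2 fold change was 0.03 (adjusted p = 0.861).

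*Gpx3* (chr11:54902453-54910377), the secreted form, was uneven within both groups. It was at 9.96, 3.45, 3.83, 3.20 and 15.5 FPKM in the NL retinas, high in NL-1 and NL-8, and at 9.82, 5.69, 10.8, 11.8 and 4.14 FPKM in the LD retinas. Its log2 fold change was 0.43 with a 95% interval of -0.62 to 1.47 (limma adjusted p = 0.556; exact permutation p = 0.413), which spans a fall as well as a more than 2-fold rise.

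Catalase (*Cat*, chr2:103453849-103485160, minus strand), the peroxisomal enzyme that breaks hydrogen peroxide down to water and oxygen, was at 11.4, 8.76, 10.2, 9.75 and 10.3 FPKM in the NL retinas and at 11.2, 11.3, 12.5, 11.4 and 10.7 FPKM in the LD retinas. NL-1 lay among the LD values and the other 4 NL retinas lay below all of them. The difference of 0.18 on the log2 scale (95% interval 0.03 to 0.33) missed the limma threshold (adjusted p = 0.0819), while the exact permutation test of this gene alone gave p = 0.0397. Without NL-1 it passed, at 0.22 (adjusted p = 0.0313).

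The 3 superoxide dismutases did not pass the test. *Sod1* (chr16:90220754-90226329), the cytosolic copper and zinc enzyme, was at 24.8, 26.0, 27.0, 28.1 and 26.2 FPKM in the NL retinas and at 27.0, 27.7, 29.4, 25.0 and 29.5 FPKM in the LD retinas. The groups overlapped, and the log2 fold change was 0.07 (95% interval -0.05 to 0.19; limma adjusted p = 0.400; exact permutation p = 0.238). Its 3′ end overlaps *Scaf4* (chr16:90225680-90284503) on the other strand, and the library kit named in the labels does not mark strand, so reads of the shared bases cannot be told apart. *Scaf4* was at 18.1 ± 1.25 FPKM under NL and 16.7 ± 1.87 under LD, a log2 fold change of -0.12 (limma adjusted p = 0.285).

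*Sod2* (chr17:13006846-13040063), the manganese enzyme of mitochondria, was the most even of the 10 genes. The NL retinas were at 16.3, 15.7, 16.4, 15.5 and 16.0 FPKM and the LD retinas at 16.1, 15.1, 15.3, 16.4 and 16.0 FPKM, nearly the same range. The estimate was -0.02 on the log2 scale with a 95% interval of -0.10 to 0.07 (limma adjusted p = 0.804; exact permutation p = 0.595).

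*Sod3* (chr5:52363791-52371418), the secreted enzyme of the extracellular space, had the lowest level. It was at 3.22, 1.12, 0.870, 1.34 and 1.35 FPKM in the NL retinas and at 0.900, 0.449, 1.27, 1.44 and 0.553 FPKM in the LD retinas, from 34 to 257 reads. NL-1 stood above the rest and the other 9 values overlapped. The estimate of -0.69 on the log2 scale had a 95% interval of -1.52 to 0.15 (limma adjusted p = 0.213; exact permutation p = 0.167).

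The scaling of the retinas changed the number of enzymes called. The deposited values carry a factor per retina of 0.951 to 0.968 for NL and 1.041 to 1.069 for LD on the library size. Without it the median difference of all genes moved by 0.13 on the log2 scale and 74.1% of all calls were higher after LD, against 52.0% with it. Of the 24508 genes tested 7774 were then called, 5761 of them higher. Of the 10 enzymes 6 were called, all higher: besides the 3 above, *Sod1* at 0.20 (limma adjusted p = 0.0177), *Sod2* at 0.12 (0.0227) and *Cat* at 0.31 (0.00700). Scaled as TPM, the median shift was 0.10 and 71.0% of calls were higher. Of the 10 enzymes 5 were then called, against 7251 of the 24508 genes, and *Sod1* at 0.17 and *Cat* at 0.28 were among the 5.

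Levels of different genes were compared per kilobase, which depends on the length used. The table's lengths cover all exons of a gene, and for *Sod1* this is 6.19 times the length of its main coding transcript, for *Prdx6* 2.01 times, for *Gpx4* 1.80 times and for *Sod2* 1.71 times. For the main coding transcript, all reads of a gene were counted to it, so a level is too high where other exons held reads. For *Sod1* these may include reads of the bases shared with *Scaf4*. Per kilobase of the main coding transcript, the NL levels were 277 ± 16.2 for *Gpx4*, 164 ± 7.55 for *Sod1*, 45.3 ± 3.67 for *Prdx6* and 33.0 ± 1.66 for *Txn1*. They were 32.6 ± 0.946 for *Prdx1*, 27.3 ± 2.47 for *Gpx1*, 27.2 ± 0.674 for *Sod2* and 10.1 ± 0.960 for *Cat*. *Gpx3* was at 8.17 ± 6.17 and *Sod3* at 1.58 ± 0.936. In this order, the neighbours *Txn1* and *Prdx1*, *Gpx1* and *Sod2*, and *Cat* and *Gpx3* differed by less than their spread. By the table's own length, *Txn1* at 33.0 FPKM stood next to *Gpx4*, ahead of *Sod1* at 26.4 FPKM.

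**Figure D2:**
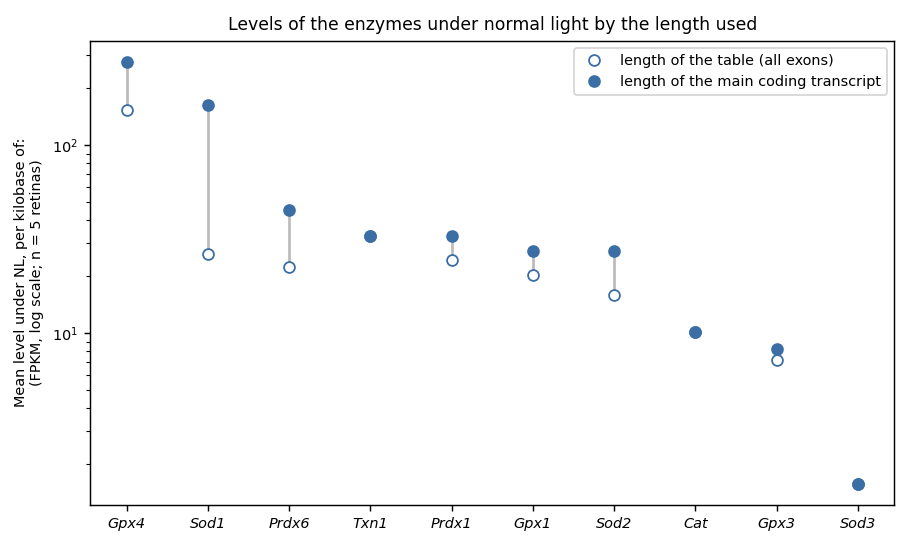
Mean NL level of the 10 enzymes in FPKM (log axis, n = 5 retinas), with the table's length over all exons (open circles) and with the length of the main coding transcript (filled circles). *Gpx4* is highest either way, at 154 and 277, and *Sod1* moves from 26.4 to 164.

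The retinas that stood apart did so together with markers of other cells. LD-4 and LD-6 were both above LD-1, LD-7 and LD-8 in 5 of the 10 enzymes (*Gpx4*, *Txn1*, *Prdx1*, *Prdx6* and *Gpx1*) and both below them in 1 (*Sod2*), and in all genes tested the shares were 20% and 22.3%. They were also above the other 3 in 6 of 8 Müller glia markers and 6 of 6 endothelium and pericyte markers, in none of 8 microglia markers, and below them in 10 of 10 photoreceptor markers. *Rlbp1*, the retinaldehyde-binding protein of Müller glia, was at 138 and 140 FPKM in LD-4 and LD-6 and at 67.2 to 74.1 in the other LD retinas, and *Kcnj10*, their potassium channel, at 23.9 and 23.3 against 10.4 to 14.9. The summed Müller glia markers were 1103 and 1154 FPKM in this pair, 913 to 932 in the other 3 and 1226 to 1451 under NL, with 3 of the 8 genes higher after LD (*Clu*, *Vim* and *Slc1a3*) and 1 lower (*Glul*). The summed endothelium and pericyte markers were 29.8 and 31.4 FPKM in this pair, 15.3 to 20.3 in the other 3 and 16.4 to 21.5 under NL, and limma called 0 of 6, with 1 at an unadjusted p under 0.05. The part of these cells in the values of *Prdx6*, *Gpx1*, *Prdx1* and *Txn1* was not tested. With both retinas left out, *Txn1* at 0.32, *Prdx1* at 0.27 and *Gpx1* at 0.36 were still called, and no other enzyme was.

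NL-1 and NL-8 were both above NL-4, NL-5 and NL-7 in *Cat*, *Gpx3* and *Sod3* and below them in none of the 10 enzymes, and in all genes the shares were 16.3% and 14.9%. In *Cat* NL-8 was barely above NL-5 (10.3 against 10.2 FPKM), and in *Sod3* barely above NL-7 (1.35 against 1.34 FPKM). NL-1 and NL-8 were above the other 3 also in 7 of 10 markers of the retinal pigment epithelium, the cell layer that lies against the neural retina. *Tyrp1*, a melanosome enzyme, was at 4.23 and 7.70 FPKM in this pair, against 0.550 to 1.32 in the other 3, and *Pmel*, a melanosome protein, at 2.02 and 8.69 against 0.596 to 0.863. The summed pigment epithelium markers were 98.6 and 159 FPKM in this pair, 56.6 to 76.9 in the other NL retinas and 65.3 to 125 under LD, and limma called 0 of 10, with 2 at an unadjusted p under 0.05. The part of these cells in the values of *Gpx3*, *Sod3* and *Cat* was not tested. Without the pair, *Gpx3* was called at 1.15 (limma adjusted p = 0.0414) and *Cat* at 0.25 (0.0360), which leaves out the highest 2 NL values of *Gpx3* and of *Cat*.

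**Figure D3:**
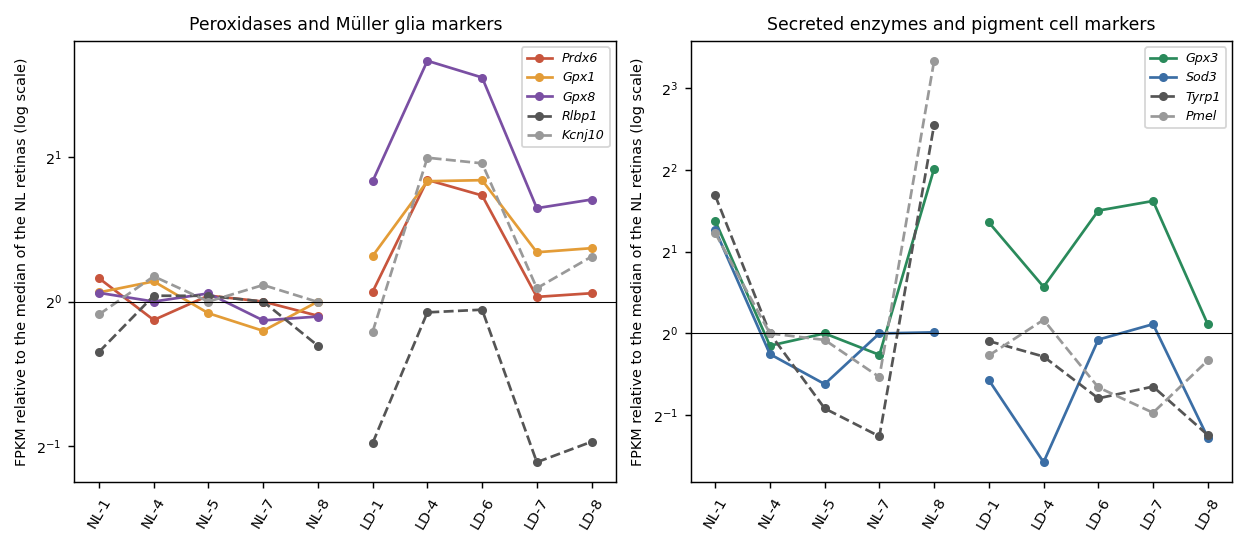
FPKM in each retina relative to the median of the 5 NL retinas (log axis) for *Prdx6*, *Gpx1*, *Gpx8* and 2 Müller glia markers (left) and for *Gpx3*, *Sod3* and 2 pigment cell markers (right, dashed). On the left LD-4 and LD-6 are above the other LD retinas in all 5 genes, and on the right NL-1 and NL-8 are the highest NL retinas in *Gpx3*, *Tyrp1* and *Pmel*. The markers were picked for the plot after their values were seen.

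The genes around the 10 enzymes were taken from lists of the same chemistry. Of 36 listed genes 32 passed the filter, and 15 were called (46.9%, against 27.8% of all genes tested), 14 higher and 1 lower after LD, with a median difference of 0.27. The lists were chosen with earlier results of these data known, so this share was not read as a result. *Gpx2*, *Gpx5*, *Gpx6* and *Prdx6b* did not pass the filter, with *Gpx5* at 0 in all retinas. At the study's threshold 3 of them were called, *Chac1*, *Slc7a11* and *Gpx8*. With the 3 closest pairs averaged, 12 of the 32 were called, against 4353 of the 24508 genes tested. Without LD-4 and LD-6, 11 of the 32 were called, against 5217 of the 24508. Without the factor per retina, 22 of the 32 were called, all higher, against 7774 of the 24508 genes. *Ccs*, the 1 lower gene, was not among the 22.

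The glutathione list held 4 called genes of 10, all higher. *Chac1*, which breaks down glutathione and is a target of the integrated stress response, was at 0.806 to 2.01 FPKM in the NL retinas and at 3.28, 6.87, 7.24, 3.62 and 6.15 FPKM in the LD retinas, a log2 fold change of 2.13 (SE 0.30, limma adjusted p = 0.000382). *Slc7a11*, the cystine and glutamate exchanger that brings in the cysteine for glutathione, was at 1.87, 0.896, 0.902, 0.785 and 1.78 FPKM in the NL retinas and at 3.20 to 4.21 FPKM in the LD retinas. Its mean rose from 1.25 ± 0.530 to 3.68 ± 0.419 FPKM, by 1.57 on the log2 scale (SE 0.24, adjusted p = 0.000640). In both genes NL-1 and NL-8 were the highest of the NL retinas, and no NL value reached the LD range. *Slc3a2*, the partner chain of that exchanger and of amino acid transporters, rose from 36.4 ± 1.80 to 60.6 ± 6.62 FPKM (0.73, adjusted p = 5.15e-05), and *Gclm*, the modifier subunit of the enzyme that starts glutathione synthesis, from 6.81 ± 0.486 to 8.49 ± 0.508 FPKM (0.31, adjusted p = 0.00347). The other 6 of the 10 genes did not pass the test, among them the glutathione reductase *Gsr* at 0.28 (adjusted p = 0.122), which passed without LD-8 at 0.37 (adjusted p = 0.0323).

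Of the 10 genes listed beside *Txn1*, thioredoxins, reductases and glutaredoxins, 6 were called, all higher. *Txnrd1*, the cytosolic reductase that recharges thioredoxin, was at 6.57, 6.89, 6.37, 6.51 and 6.78 FPKM in the NL retinas and at 10.6, 13.6, 13.0, 11.3 and 12.1 FPKM in the LD retinas. The groups were far apart against their spread, with a log2 fold change of 0.86 (SE 0.07, limma adjusted p = 9.08e-06). *Nxn*, a thioredoxin-related nuclear oxidoreductase, rose by 0.71 (adjusted p = 0.000835) and *Txnrd3*, a reductase known best from testis, by 0.58 (adjusted p = 0.00124). *Txnrd2*, the mitochondrial reductase, rose by 0.31 (adjusted p = 0.0249), a call that was lost without NL-1, NL-8, LD-4 or LD-6 in turn (adjusted p of 0.0515 to 0.0617). Over all 24 alternative settings of the fit, the *Txnrd2* call was lost in 10, with a limma adjusted p of up to 0.128. The other 2 called genes were the glutaredoxins *Glrx3* and *Glrx5*, named here after their values were seen. *Txnip*, which binds thioredoxin and blocks it, was at 1.48 ± 0.295 and 2.19 ± 0.573 FPKM and did not pass (0.51, adjusted p = 0.0725), but passed without NL-5 (0.62, adjusted p = 0.0418) or LD-8 (0.65, adjusted p = 0.0178).

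Among the relatives of the peroxidases, *Gpx8*, an enzyme of the endoplasmic reticulum with cysteine at the codon shown above, was at 7.54, 7.23, 7.52, 6.61 and 6.73 FPKM in the NL retinas and at 12.9, 22.9, 21.2, 11.3 and 11.8 FPKM in the LD retinas. All LD values were above the NL values, and LD-4 and LD-6 were the highest, as for *Gpx1*. Its log2 fold change was 1.09 (SE 0.20, limma adjusted p = 0.00191), and 0.74 without LD-4 and LD-6 (adjusted p = 0.000113). *Gpx7*, its close relative in the same compartment, rose by 0.49 from 1.69 ± 0.307 to 2.40 ± 0.373 FPKM (adjusted p = 0.0355), a call lost without NL-4, NL-5, NL-7, LD-4, LD-6 or LD-7 in turn (adjusted p of 0.0569 to 0.0823). Over all 24 alternative settings of the fit, this call was lost in 12, with a limma adjusted p of up to 0.23. *Gpx8* and *Gpx7* were the 2 genes of 5 listed that passed the filter.

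Of the peroxiredoxin list beside *Prdx1* and *Prdx6*, 2 of 5 tested genes were called. *Prdx4*, the peroxiredoxin of the endoplasmic reticulum, rose from 3.59 ± 0.194 to 5.31 ± 0.418 FPKM (log2 fold change of 0.55, limma adjusted p = 0.000211). *Srxn1*, sulfiredoxin, which repairs overoxidized peroxiredoxins, rose from 22.4 ± 2.35 to 30.8 ± 3.35 FPKM (0.46, adjusted p = 0.00330). *Ccs*, the chaperone that loads copper into *Sod1* protein, was the 1 gene that fell, from 22.4 ± 1.78 to 19.8 ± 0.478 FPKM (-0.18, adjusted p = 0.0328), and its call was lost without NL-4, NL-7, NL-8, LD-4, LD-6, LD-7 or LD-8 in turn (adjusted p of 0.0504 to 0.0764) and without the factor per retina (-0.04). Over all 24 alternative settings of the fit, the *Ccs* call was lost in 14, with a limma adjusted p of up to 0.618. Of the 4 methionine sulfoxide reductases, which repair oxidized methionine, limma called 0, and 1 had an unadjusted p under 0.05.

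Genes that make superoxide or peroxide were counted beside the enzymes that remove them. Of 10 listed, 7 passed the filter and 6 were called (85.7%, against 27.8% of all genes tested), all higher after LD. *Cybb* passed the filter through its LD values alone, with at most 0.0805 FPKM under NL. *Ncf4* and *Rac2* also needed LD values to pass. The calls of these genes are thus not independent of the filter, and the share was not read as a result. *Nox1*, named after its values were seen, was tested and not called (-0.17, limma adjusted p = 0.612). *Cyba*, the membrane subunit of NADPH oxidases, rose from 3.46 ± 0.814 to 10.9 ± 1.64 FPKM (log2 fold change of 1.64, limma adjusted p = 3.27e-05), and *Ncf1*, a cytosolic subunit, from 0.568 ± 0.0779 to 1.42 ± 0.336 FPKM (1.16, adjusted p = 0.000492). The other 4 called genes (*Cybb*, *Rac2*, *Ncf4* and *Xdh*) stayed under 1 FPKM on average in both groups, and are named after their values were seen. *Cybb*, the catalytic chain of the phagocyte oxidase, was counted in 3 to 10 reads under NL, whereas 84 to 125 reads were found under LD. Subunits of this oxidase are known from phagocytes, and 6 of 8 microglia markers were higher after LD, with a summed level of 31.1 to 47.3 FPKM under NL and 57.0 to 138 under LD. Of the 6 genes listed for infiltrating monocytes and neutrophils, 2 of the 4 tested were higher, with sums of 1.04 to 3.02 and 6.35 to 12.3 FPKM. Most of these sums was *Lyz2*, at 0.859 to 2.63 FPKM under NL and 5.05 to 11.7 under LD. *Plac8* passed the filter through its LD values alone, with at most 0.0309 FPKM under NL. Its result is thus not independent of the filter, and *Ccr2* was at most at 0.140 FPKM in any retina. The part of these cells in the oxidase values was not tested.

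**Figure D4:**
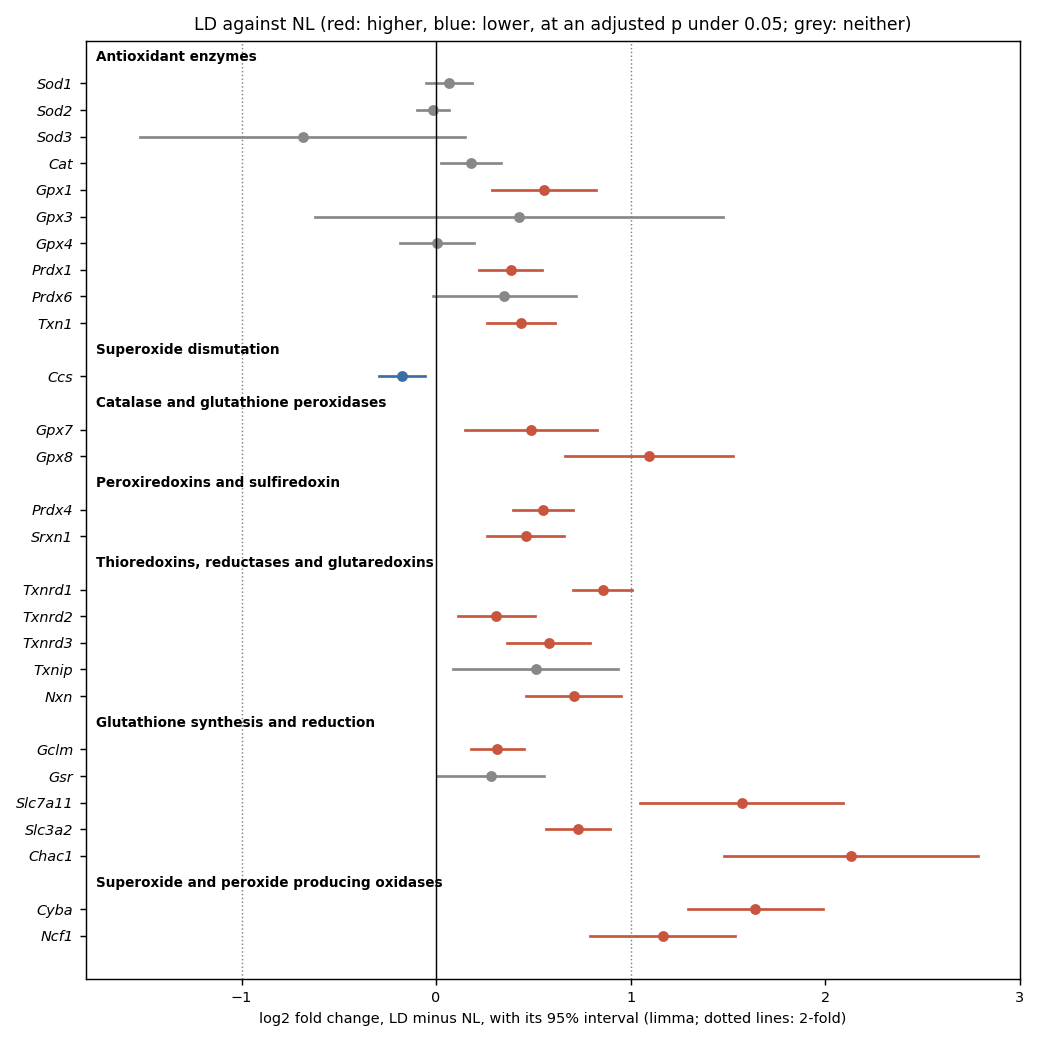
Log2 fold change, LD minus NL, with its 95% interval (limma, 5 against 5 retinas) for the 10 enzymes and the named genes of the related lists. Red and blue mark genes higher and lower at an adjusted p under 0.05, grey marks the others, and dotted lines mark 2-fold. *Txn1*, *Prdx1* and *Gpx1* lie at 0.44, 0.38 and 0.55, inside the 2-fold lines, while *Chac1* and *Slc7a11* lie at 2.13 and 1.57.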

How the data were processed

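TRIzol RNA of 10 neural retinas was sequenced by a company in read pairs (150 bases per read), and the company also normalized the data. The paper's methods name a HiSeq instrument and the labels a NovaSeq. The authors deposited FPKM values for 54532 genes. The submitters' processing notes name Bowtie2 2.0.6, TopHat2 2.0.9 and mm8, with no role given, but the positions in the table are on GRCm38: of 54409 identifiers in GENCODE M21, 53499 had the same position. The counting program and its strand setting are not given in the sources used here. FPKM times gene length gave whole reads for each gene (within 0.01), from which depth was taken.

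Groups come from the labels. Of the deposited FPKM, log2(FPKM + 0.1) was fitted for genes that reached 0.1 FPKM in 5 or more retinas, by limma 3.58.1 (R 4.3.3) without a block and with its trend over intensity, and p-values were adjusted by Benjamini-Hochberg over all of these genes. The fit was tested on simulated data. Two-sided exact permutation tests (scipy 1.17.1) were run for each enzyme. The 10 enzymes, the lists and the markers were chosen with earlier results of these data known. Named beside them were the called genes of each list that averaged 1 FPKM or more in NL or LD, at most the 4 with the largest change, partners of the enzymes (*Ccs*, *Srxn1*, *Txnrd1*, *Txnrd2*, *Txnip*, *Gsr*, *Gclm*, *Prdx6b*), and overlapping genes or copies. Alternatives changed the pseudocount, filter, scaling, trend, test, threshold, block and retinas. Transcript comparisons used Biopython 1.88. Marker lists not given in the report had 0 of 4 (red blood cells, 3 at an unadjusted p under 0.05) and 1 of 3 (lens) tested genes called by limma. Some genes are left out of the lists and are not reported here.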

Additional observations from a re-analysis of the deposited data

Results flagged for a closer look

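Of 58 groups of 5 retinas checked for a value far from the others, 2 were picked out, and chance alone picks about 1 in 20, or 2.9 here. *Sod3* was at 3.22 FPKM in NL-1 and at 0.870 to 1.35 in the other NL retinas. *Nxn* was at 10.03 FPKM in NL-1 and at 7.88 to 8.37 in the other NL retinas. Both are values of NL-1, which with NL-8 was also highest in pigment cell markers among the NL retinas.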

How the results depend on the processing

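*Txn1*, *Prdx1* and *Gpx1* kept their direction and their call in each of 25 alternatives other than the study's threshold, with log2 fold changes of 0.32 to 0.57, 0.27 to 0.52 and 0.36 to 0.69. The number of enzymes called was 6 without the factor per retina, 5 scaled as TPM, 5 without NL-1 and NL-8 (chosen after seeing the data), 0 at the study's threshold, and 3 to 4 with each retina left out in turn. For the related genes it was 3 at the study's threshold, 22 without the factor and 22 as TPM, all higher. It was 12 with the 3 closest pairs averaged and 11 to 16 with each retina left out. For the oxidases it was 5 with the 3 closest pairs averaged, and 2 under a filter of at least 1 FPKM, which leaves 2 genes tested. For all genes, 6818 in the report, it was 7774 without the factor, 7251 as TPM, 5152 without NL-1 and NL-8 and 1595 at the study's threshold. It was 4353 with the 3 closest pairs averaged, which leaves fewer samples, and 5777 to 6813 with each retina left out. *Sod2* changed sign, at 0.12 without the factor, 0.088 as TPM, 0.020 without LD-4 and LD-6 (chosen after seeing the data), and -0.030 to 4.67e-06 with each retina left out. *Gpx4* changed sign at -0.10 without LD-4 and LD-6, and ran from -0.048 to 0.063 with each retina left out. *Scaf4* changed sign at 0.0083 without the factor. Except where the construction is given, the cause was not tested.

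Numbers shared by the groups (1, 4, 7 and 8) gave correlations of deviations of 0.06, 0.07, -0.01 and -0.09, and not every retina correlated best with its own number. With so few shared numbers, these correlations cannot decide whether retinas of the same number belong together. With the replicate block on these 8 retinas, 3805 genes were called (4758 without the block on the same retinas), 3 enzymes and 10 related genes. *Sod2* was then at 0.0057 and *Gpx4* at -0.027, with or without the block. Of 251 alternatives for the single enzymes, 230 left the call and the direction as they were, 8 added a call with the same sign, 13 changed the sign, and 0 lost a call. Among the sign changes, *Sod2* without the factor per retina was also called. Of the 10 enzymes, *Sod3* had the fewest reads, 34 to 257 per retina, and *Cybb* had 3 to 10 under NL.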
